A study of Rattus norvegicus with 12 samples.

Results

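Neutrophils carry their antimicrobial proteins in granules, and the 10 genes described here encode the best known of these proteins. S100a8 and S100a9 encode the subunits of calprotectin. Lcn2, Ltf, Camp and Ngp encode proteins of specific granules. Mpo, Elane, Prtn3 and Ctsg encode proteins of azurophil granules. The members were the array probes whose gene name in the scanner files is 1 of these 10, which gave 12 probes of 45598. S100a8 and Camp had 2 probes each and the other genes 1. On the array, 25528 gene names are read in all. Probes entered the tests when 4 or more of the 12 arrays read them well above background, as was so for 11 of the 12 member probes and 27196 of all probes. The Ltf probe did not enter.

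The study measured RNA of rat calvarial bone, the flat bone of the skull roof, at 10 weeks of age and 24 h after surgery. In 4 laser samples a rectangle of 8 by 3 mm was cut with 3 strokes of an Er:YAG laser, whose infrared light is taken up by water in the tissue, at 127 mJ per pulse at the tip, 20 Hz and about 2 mm/s. In 4 bur samples a defect of that size was drilled with a rotating bur at about 0.75 mm/s. In 4 control samples the periosteum, the membrane over the bone, was taken off and the bone was not cut. Samples carry the numbers 1 to 4 in each group. The labels give neither strain nor sex, and whether each sample is another animal is not stated, so the p-values measure only the spread between these samples.

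Granule proteins are made in waves as a neutrophil matures in the marrow. Azurophil granule genes are transcribed in promyelocytes, specific granule genes later, in myelocytes and metamyelocytes, and the receptors and gelatinase granule genes of mature cells last. The RNA of the azurophil genes has largely gone by the time a neutrophil enters the blood, whereas calprotectin RNA stays abundant in mature cells and is also made by monocytes. Calvarial bone holds marrow, so its RNA can come from precursors in the marrow as well as from neutrophils that entered the wound.

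The probes that the results below turn on are given here 5′ to 3′ as the scanner files list them, so that what each value reports can be seen. The first 3 had higher signal in laser-cut bone, and the fourth had lower signal in drilled bone. The fourth and the last 3 read higher on arrays 3 and 4 than on arrays 1 and 2 in each group.
S100a8: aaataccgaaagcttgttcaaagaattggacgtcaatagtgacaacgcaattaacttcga
S100a9: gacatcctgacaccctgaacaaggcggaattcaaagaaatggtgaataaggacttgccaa
Camp: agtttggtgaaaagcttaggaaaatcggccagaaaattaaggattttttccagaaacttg
Prtn3: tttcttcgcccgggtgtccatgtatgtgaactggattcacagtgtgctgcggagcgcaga
Mpo: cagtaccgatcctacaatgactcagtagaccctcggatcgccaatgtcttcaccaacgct
Elane: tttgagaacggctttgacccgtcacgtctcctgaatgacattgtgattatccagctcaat
Ctsg: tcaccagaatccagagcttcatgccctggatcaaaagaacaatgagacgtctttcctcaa
On the rn4 build these probes lie at chr2:182962328-182962387 for S100a8, chr2:182987647-182987706 for S100a9, chr8:114214987-114215046 for Camp and chr7:11334729-11334788 for Prtn3, per the scanner files. Those of Mpo, Elane and Ctsg lie at chr10:76094059-76094118, chr7:11330273-11330751 and chr15:34622339-34622398. The Elane probe spans 479 bases of the genome with 60 bases of sequence. S100a8 and S100a9 are neighbours, with 25.3 kb between their probes, and so are Elane and Prtn3, with 4.0 kb. Camp and Ngp lie on 1 chromosome with 583.2 kb between their probes.

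Values are log2 of the processed signal, quantile normalized between arrays, and differences are log2 fold changes with their standard errors from a limma fit over all 12 arrays. Calls were made at an adjusted p under 0.05, after Benjamini and Hochberg, over all tested probes. All laser arrays lay on slide 2 and all bur and control arrays on slide 1, in separate columns. In both comparisons with laser-cut bone, slide and treatment cannot be told apart, and in bur against control the column and the treatment cannot. Median processed signal before normalization was 55.6 to 81.9 on laser arrays, 18.6 to 28.3 on bur arrays and 16.5 to 43.2 on control arrays. Osteoblast and osteocyte markers were read in all groups: 8 of 8 were tested, and their mean level over the list was 11.01 to 11.90 log2 on laser arrays, 10.80 to 11.24 on bur arrays and 10.05 to 10.71 on control arrays. In bulk bone, fewer neutrophils and less RNA per neutrophil cannot be told apart.

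Laser ablation was compared with periosteum removal alone and with drilling to see how the granule genes stood 24 h after each way of cutting bone. By the first probe of each gene, calprotectin RNA and Camp RNA were higher in laser-cut bone than in either other group, while no azurophil gene was called in laser-cut bone in the fit without the sample number. With the number as a block, Elane and Ctsg were called lower in laser-cut than in uncut bone (adjusted p = 0.0370 and 0.00857). The Elane call did not hold in the authors' deposited table (adjusted p = 0.0920). S100a8, S100a9 and Camp were 1.81-, 1.86- and 1.88-fold higher in laser-cut than in uncut bone, and 2.24-, 2.65- and 2.89-fold higher than in drilled bone. In drilled bone the differences from control bone were negative for all 11 tested probes, and 1 of them, Prtn3, was called.

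Of all tested probes, 32.5% were called for laser against control, 18.7% higher and 13.8% lower. Of the 11 member probes tested, 4 were called, 3 higher and 1 lower, the last being the second S100a8 probe described below. For bur against control 1 was called, lower, beside 20.1% of all, 12.2% higher and 7.83% lower. For laser against bur 3 were called, all higher, beside 26.7% of all, 13.3% higher and 13.5% lower. The arrays of the groups did not overlap on 4, 2 and 3 of the 11 member probes in these comparisons, against 34.4%, 20.7% and 34.7% of all probes. The share of members called higher lay above that of all probes in both comparisons of laser-cut bone, and the share called in either direction lay slightly above it there and below it for bur against control. With 11 probes, these differences in share were not tested. Both comparisons with uncut bone share the control arrays.

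S100a9, the larger partner in calprotectin, read 15.75, 16.07, 15.78 and 16.17 on laser arrays 1 to 4, 14.42, 14.74, 14.83 and 14.16 on bur arrays, and 15.11, 14.97, 15.06 and 15.04 on control arrays. The 3 groups did not overlap on this probe: every laser array lay above every control array, and every bur array below. The difference was 0.90 ± 0.17 (SE) between laser-cut and uncut bone (adjusted p = 0.00199) and 1.40 ± 0.17 between laser-cut and drilled bone (adjusted p = 0.000118). For bur against control it was -0.51 ± 0.17, at an adjusted p of 0.0524, just outside the threshold. That last call changed with small steps of processing: the adjusted p was 0.0205 with another background correction and 0.0376 when arrays were scaled to their 75th percentile.

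S100a8, the other calprotectin subunit, read 15.25, 15.41, 15.50 and 15.71 on laser arrays, 14.17, 14.62, 14.62 and 13.81 on bur arrays, and 15.09, 14.001, 14.81 and 14.54 on control arrays. The laser arrays lay above all others, and the bur and control arrays overlapped. Laser-cut bone exceeded uncut bone by 0.86 ± 0.25 (adjusted p = 0.0224) and drilled bone by 1.16 ± 0.25 (adjusted p = 0.00579). Drilled bone differed by -0.31 ± 0.25 from uncut bone (adjusted p = 0.416). The laser against control call was lost when control 2, control 4 or laser 4 was left out, with differences of 0.65 to 1.01 over all single omissions.

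Camp encodes the cathelicidin of specific granules, a precursor cut by proteinase 3 to free its antimicrobial peptide in humans. It read 13.71, 14.16, 14.18 and 14.59 on laser arrays, 12.24, 13.17, 13.10 and 12.02 on bur arrays, and 13.22, 13.06, 13.33 and 13.39 on control arrays. Again the laser arrays lay above all others, and bur arrays 1 and 4 lay below every control array. Camp in laser-cut bone exceeded uncut bone by 0.91 ± 0.27 (adjusted p = 0.0252) and drilled bone by 1.53 ± 0.27 (adjusted p = 0.00187). In drilled bone it differed by -0.62 ± 0.27 from uncut bone (adjusted p = 0.131). The laser against control call was lost without laser 2, laser 3, laser 4 or control 2, and without control 1 and control 4 together. The differences between laser-cut and drilled bone of S100a8, S100a9 and Camp kept their call in each of the 25 alternatives run.

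Monocytes, macrophages and keratinocytes can also make calprotectin, and some of their markers were higher in laser-cut than in uncut bone. Of 8 macrophage markers, 4 were higher and none lower, with a mean level over the list of 8.69 to 8.96 log2 on laser arrays, 9.21 to 9.60 on bur arrays and 8.10 to 8.59 on control arrays. The mean level of the list was highest on bur arrays. Of 5 keratinocyte markers tested, 2 were higher and none lower, with a mean level of 4.24 to 4.35 on laser arrays, 3.99 to 4.45 on bur arrays and 3.58 to 4.09 on control arrays. Krt5 and Krt14 were well above background on all 4 laser arrays and on no bur or control array. Both therefore entered the tests through the laser arrays alone, and their differences are a description. Laser arrays read more spots of any kind well above background, 67.5 to 72.0%, against 57.0 to 59.9% on bur and 57.2 to 64.4% on control arrays. Apart from single omissions, the alternatives gave 1 to 3 higher keratinocyte markers for laser against control. Without laser 1, laser 2, laser 4 or control 4, the count of higher macrophage markers was 2.

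Markers of tissue next to the bone and of bone itself differed too. Of 3 skeletal muscle markers tested, 2, Ckm and Acta1, were higher in laser-cut than in uncut bone, and the mean level over the list was 5.49 to 5.80 log2 on laser arrays, 3.06 to 4.49 on bur arrays and 2.51 to 5.44 on control arrays. Of the 8 osteoblast and osteocyte markers, 5 were higher in laser-cut than in uncut bone and 2 in drilled than in uncut bone. Of 5 neural markers, 3 were lower than in uncut bone in each cut group, with a mean level of 3.65 to 4.999 on laser arrays, 2.94 to 4.83 on bur arrays and 4.75 to 8.08 on control arrays. The part of all these cells in the calprotectin values was not tested.

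**Figure D1:**
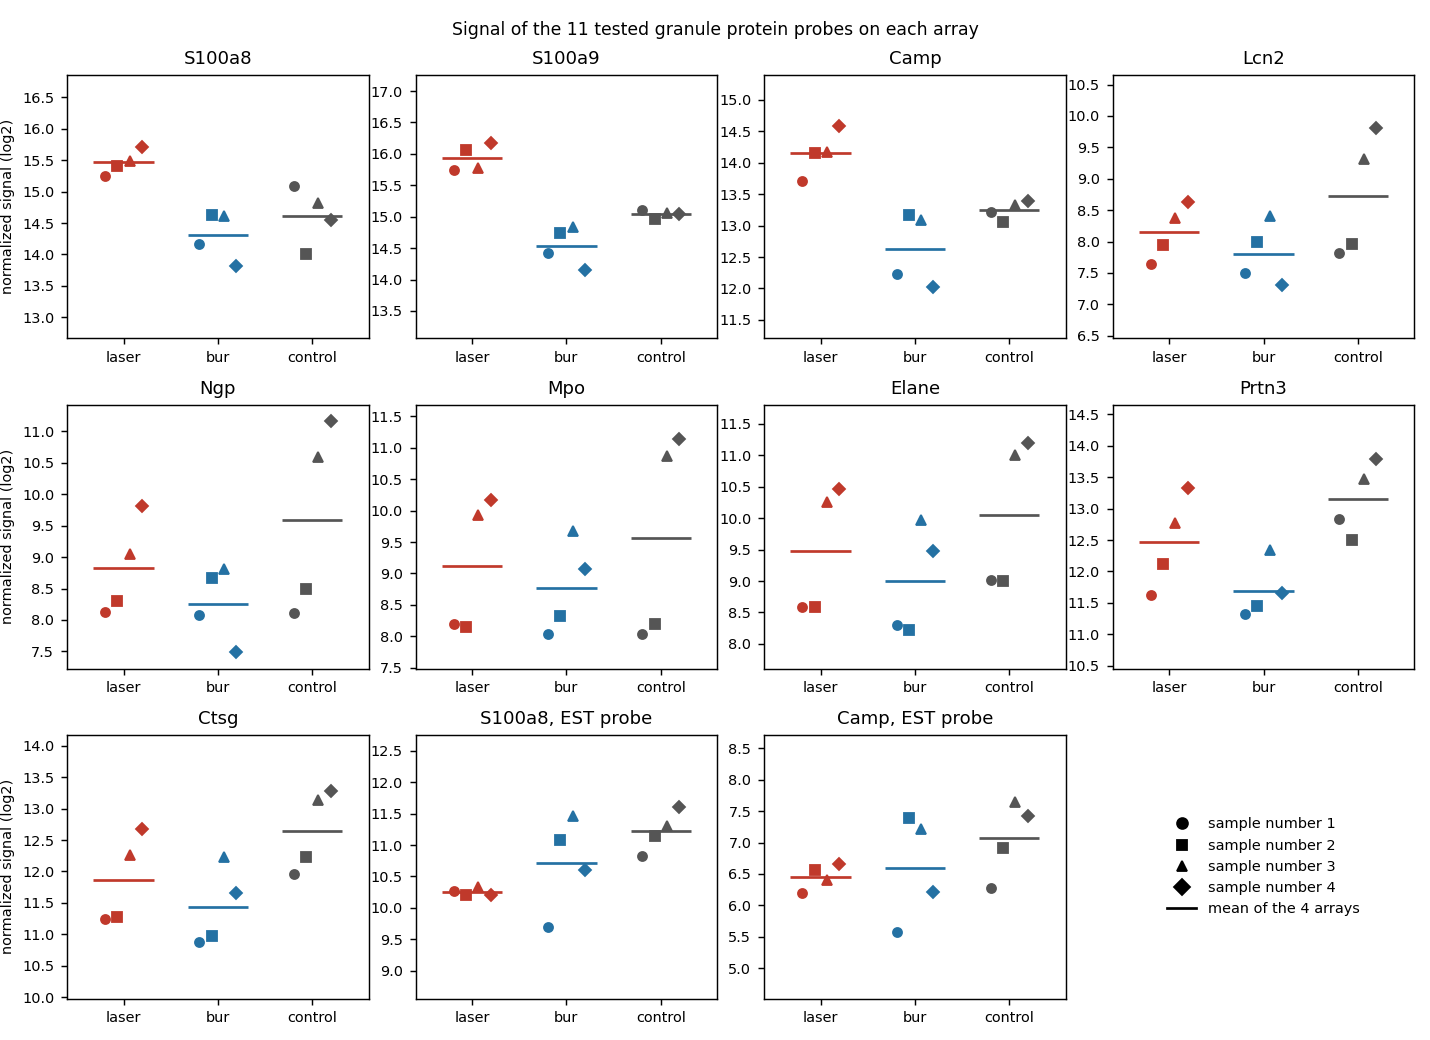
Normalized log2 signal of the 11 tested probes on each of the 12 arrays, laser left, bur middle and control right, with a bar at the mean of 4 arrays; every panel spans the same range of log2 units but starts at its own level, and marker shapes give the sample number. S100a8, S100a9 and Camp are highest on the 4 laser arrays, while Mpo and Elane split by sample number inside every group.

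S100a8 and Camp each had a second probe, designed on an expressed sequence tag, whose listed coordinates run in the opposite order to the first probe of the gene. The second S100a8 probe lies at chr2:182961489-182962022 and spans 534 bases, and the second Camp probe lies at chr8:114216548-114216607. Neither shares a run of over 6 bases with the first probe of its gene. By that order, the second probes are written on the strand opposite to the first probes. They are therefore no plain repeat reading of the RNA of their genes, though counts over all tested probes include them. Which RNA gives their signal was not tested.

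The second S100a8 probe read 10.27, 10.21, 10.33 and 10.21 on laser arrays, 9.69, 11.07, 11.47 and 10.60 on bur arrays, and 10.83, 11.15, 11.31 and 11.61 on control arrays. It was lower in laser-cut than in uncut bone, the reverse of the first S100a8 probe: the difference was -0.97 ± 0.32 (adjusted p = 0.0360), and the 4 laser arrays lay below all 4 control arrays. That call was lost on 7 of the 12 single omissions, under 75th percentile scaling, without a filter on dim probes and without control 1 and control 4 together. The second Camp probe read 6.19, 6.56, 6.41 and 6.66 on laser arrays, 5.58, 7.38, 7.21 and 6.21 on bur arrays, and 6.28, 6.92, 7.65 and 7.42 on control arrays. It was called in no comparison, with a difference of -0.61 ± 0.40 for laser against control (adjusted p = 0.266).

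How far the 2 probes of a gene stood apart is given by their difference on each array. This is a description chosen after the values were seen. For S100a8 this difference was 4.98 to 5.50 on laser arrays, 3.15 to 4.47 on bur arrays and 2.85 to 4.26 on control arrays. For Camp it was 7.51 to 7.93, 5.78 to 6.66 and 5.69 to 6.95 on laser, bur and control arrays. In both genes the difference was wider on every laser array than on any bur or control array, and the bur and control arrays overlapped.

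Lcn2 encodes lipocalin 2, which binds bacterial siderophores and is also made by epithelia and macrophages. It read 7.64, 7.94, 8.38 and 8.62 on laser arrays, 7.51, 8.00, 8.40 and 7.32 on bur arrays, and 7.81, 7.96, 9.31 and 9.80 on control arrays. The groups overlapped, and control 3 and control 4 were the highest arrays. No difference was called: -0.57 ± 0.44 for laser against control (adjusted p = 0.348), -0.91 ± 0.44 for bur against control (adjusted p = 0.169) and 0.34 ± 0.44 for laser against bur (adjusted p = 0.617). The 95% intervals ran from -1.54 to 0.40, from -1.88 to 0.06 and from -0.63 to 1.31, so each still includes a change of 1 log2 unit.

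Ngp, neutrophilic granule protein, is a specific granule protein of the cathelicidin and cystatin family. It read 8.12, 8.30, 9.06 and 9.81 on laser arrays, 8.07, 8.66, 8.82 and 7.48 on bur arrays, and 8.11, 8.49, 10.60 and 11.17 on control arrays. The spread within the control group was wider than any difference between groups. None was called, with -0.77 ± 0.66 for laser against control (adjusted p = 0.405), -1.33 ± 0.66 for bur against control (adjusted p = 0.181) and 0.56 ± 0.66 for laser against bur (adjusted p = 0.577).

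Ltf encodes lactoferrin, the iron-binding protein of specific granules. Its 1 probe was not well above background on any of the 12 arrays, where it read 0.64 to 2.43 log2, so no fold is given. A probe below background says nothing on whether the RNA was present.

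The 4 tested specific granule probes, the second Camp probe among them, were also counted as a class. For laser against control, 1 was called higher and none lower, beside 18.7% and 13.8% of all tested probes, with a median difference of -0.59. For bur against control none was called, beside 20.1% of all, with a median of -0.77. For laser against bur 1 was called higher and none lower, beside 13.3% and 13.5% of all, with a median of 0.45. With 4 probes, these shares were not tested.

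Prtn3 encodes proteinase 3, a serine protease of azurophil granules. It read 11.62, 12.12, 12.77 and 13.33 on laser arrays, 11.32, 11.45, 12.34 and 11.66 on bur arrays, and 12.83, 12.50, 13.47 and 13.79 on control arrays. Every bur array lay below every control array, and the laser arrays overlapped both. Drilled bone held 2.75-fold less Prtn3 RNA than uncut bone, a difference of -1.46 ± 0.39 (adjusted p = 0.0238). The call was lost without bur 1, bur 2, bur 4 or control 4, with array weights and without control 1 and control 4, while the difference lay between -1.67 and -1.24 over all single omissions. Laser-cut bone differed by -0.69 ± 0.39 from uncut bone (adjusted p = 0.205) and by 0.77 ± 0.39 from drilled bone (adjusted p = 0.176).

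Ctsg encodes cathepsin G, another serine protease of azurophil granules. It read 11.25, 11.28, 12.27 and 12.67 on laser arrays, 10.87, 10.97, 12.24 and 11.66 on bur arrays, and 11.96, 12.23, 13.14 and 13.27 on control arrays. Bur 3 was the 1 bur array that reached the control range. The difference for bur against control was -1.21 ± 0.43 (adjusted p = 0.0697), and it was -0.79 ± 0.43 for laser against control (adjusted p = 0.187) and 0.43 ± 0.43 for laser against bur (adjusted p = 0.507). With the sample number as a block, Ctsg was called lower in both cut groups, with an adjusted p of 0.00857 for laser against control and 0.00292 for bur against control.

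Elane, neutrophil elastase, read 8.59, 8.58, 10.26 and 10.47 on laser arrays, 8.31, 8.22, 9.98 and 9.48 on bur arrays, and 9.02, 8.997, 11.01 and 11.19 on control arrays. Mpo, myeloperoxidase, the enzyme that makes hypochlorous acid, read 8.20, 8.15, 9.93 and 10.18 on laser arrays, 8.04, 8.32, 9.67 and 9.07 on bur arrays, and 8.03, 8.19, 10.87 and 11.14 on control arrays. In both genes the arrays numbered 3 and 4 read higher than those numbered 1 and 2 in all 3 groups. The groups overlapped, and no difference was called without the sample number in the fit. With the number as a block, Elane was called lower in both cut groups, with an adjusted p of 0.0370 for laser against control and 0.00569 for bur against control. Without the block the difference for Elane was -0.58 ± 0.66 for laser against control (adjusted p = 0.537), -1.06 ± 0.66 for bur against control (adjusted p = 0.287) and 0.48 ± 0.66 for laser against bur (adjusted p = 0.641). For Mpo it was -0.44 ± 0.78, -0.78 ± 0.78 and 0.34 ± 0.78 in the same order, with adjusted p of 0.697, 0.513 and 0.790.

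Markers of red cell precursors, which share the marrow with azurophil precursors, were lower in both cut groups, 6 of 6 tested genes for laser against control and 6 of 6 for bur against control. Their mean level over the list was 11.53 to 11.94 log2 on laser arrays, 11.08 to 12.21 on bur arrays and 13.13 to 13.35 on control arrays. Their part in the azurophil values was not tested.

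**Figure D2:**
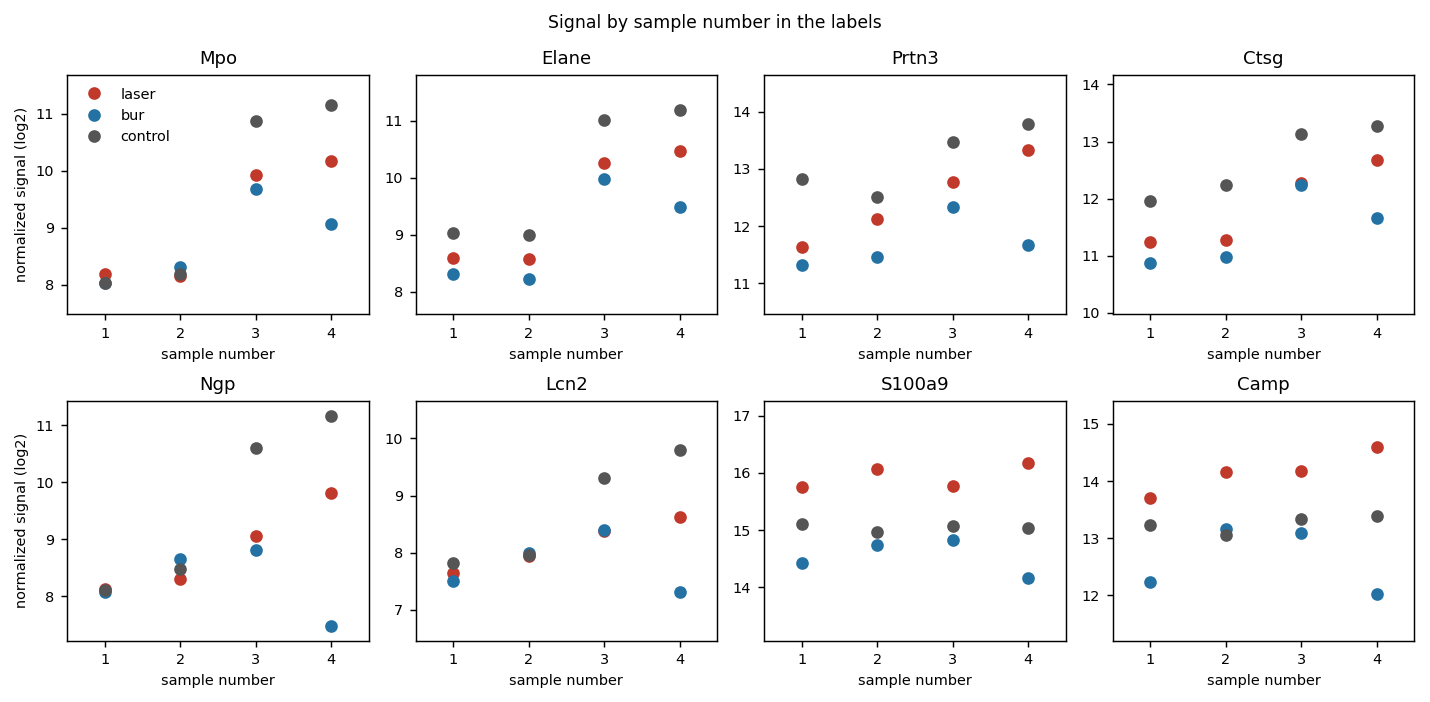
Normalized log2 signal of 8 probes against the sample number in the labels, with 1 point per array, coloured by group. Mpo and Elane are higher on arrays 3 and 4 in the laser, bur and control groups alike, and S100a9 and Camp show no such order.

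The order by sample number held for Prtn3 and Ctsg too, so all 4 azurophil probes read higher on arrays 3 and 4 than on arrays 1 and 2 in each group. This pattern was chosen after the values were seen and is a description. Of all tested probes, 3.86% showed it, and none of the other 7 tested member probes did. Across the 4 numbers, an F test with group in the model gave an adjusted p of 0.0596 for Elane, 0.137 for Ctsg, 0.195 for Mpo and 0.307 for Prtn3, and it called 0.00368% of all tested probes. The number is also the slide row of the array, and the 2 cannot be told apart.

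How the number enters the fit changes the azurophil calls. The p-values in the authors' deposited table were matched within 1e-06 on the log10 scale, for all 21080 of its entries, by a limma fit to their deposited values with the sample number as a block. In the authors' deposited table, Prtn3, Ctsg and Elane were lower in drilled than in uncut bone by 1.64, 1.01 and 0.82 log2, with adjusted p of 0.000305, 0.00113 and 0.00720, and so were S100a9 and Ngp, with adjusted p of 0.0365 and 0.0456. The authors' deposited table called 5 of 11 member probes lower in that comparison, none higher, and 31.3% of all its entries. For laser-cut against uncut bone the authors' deposited table called Prtn3 and Ctsg lower as well, with adjusted p of 0.0146 and 0.00846, and called 39.2% of its entries. Elane was not called there (adjusted p = 0.0920). The block fit to the main values called Elane but not Prtn3 (adjusted p = 0.0370 and 0.0547). For laser-cut against drilled bone the authors' deposited table called Prtn3 higher, with an adjusted p of 0.00692, and called 31.7% of its entries. What the numbers stand for is not given in the sources used here.

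**Figure D3:**
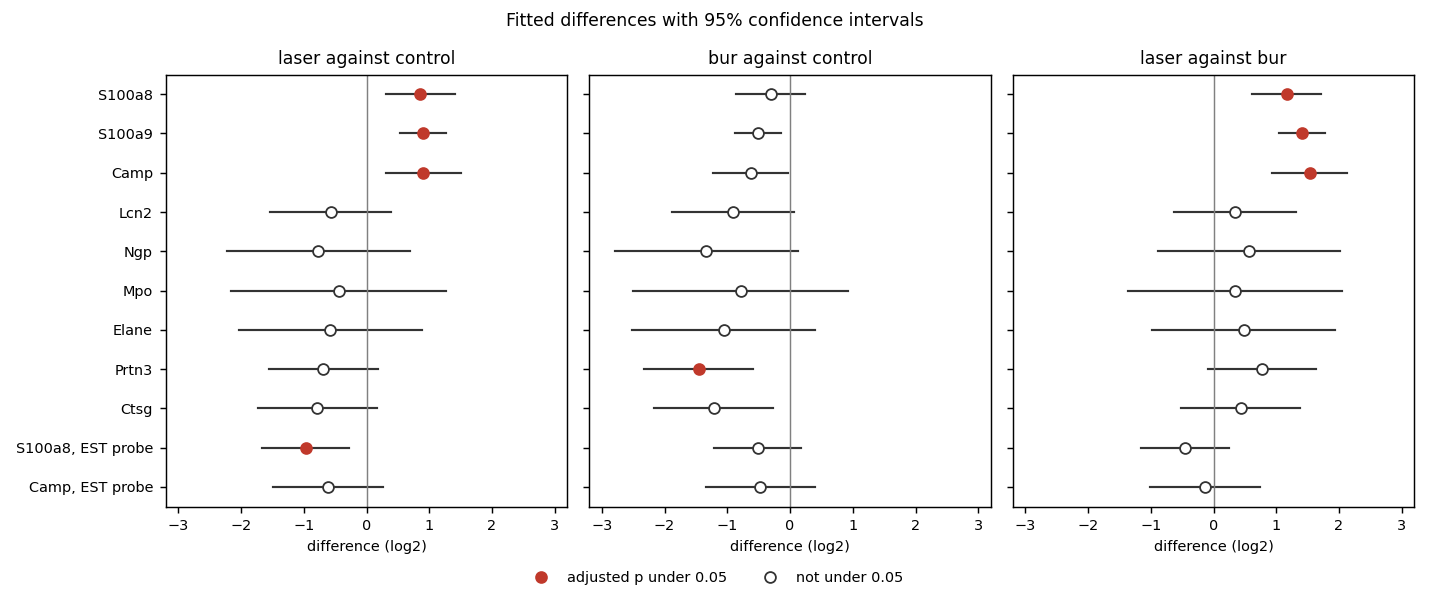
Fitted log2 differences of the 11 tested probes in the 3 comparisons, with 95% confidence intervals; filled points have an adjusted p under 0.05 over all tested probes. S100a8, S100a9 and Camp lie above 0 in both comparisons of laser-cut bone, all 11 probes lie below 0 for bur against control, and Mpo, Elane and Ngp have the widest intervals.

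In drilled bone the median difference was -0.51 over the 3 calprotectin probes, -0.77 over the 4 specific granule probes and -1.14 over the 4 azurophil probes, against 0.09 over all tested probes. In laser-cut against uncut bone the medians were 0.86, -0.59 and -0.63, against 0.04 over all probes. All of these medians by class include the second probes of S100a8 and Camp. Scaling arrays to their 75th percentile moved the median of all probes to -0.11 for bur against control and -0.06 for laser against control. Under that scaling, called probes in drilled bone split into 2208 higher and 3453 lower, where 61.0% were higher under quantile normalization. All 11 member differences for bur against control stayed negative under it. Of the calls for laser against control 48.8% were higher under that scaling and 57.4% under quantile normalization, and for laser against bur 58.4% and 49.6%.

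Across the 12 arrays the granule probes fell into sets that rose and fell together. The points share arrays, slides and groups, so these correlations are a description. S100a8, S100a9 and the first Camp probe correlated at 0.92 to 0.96 with each other. The 4 azurophil probes correlated at 0.78 to 0.97 among themselves, and Lcn2 and Ngp at 0.99. Lcn2 and Ngp correlated at 0.83 to 0.88 with the azurophil probes and at 0.22 to 0.24 with the calprotectin pair, although they belong to the same granule class as Camp. Calprotectin and azurophil probes were linked weakly, at 0.12 to 0.36 for the first probes. The second probes of S100a8 and Camp correlated at 0.86 with each other, and the 2 probes of S100a8 at -0.30.

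**Figure D4:**
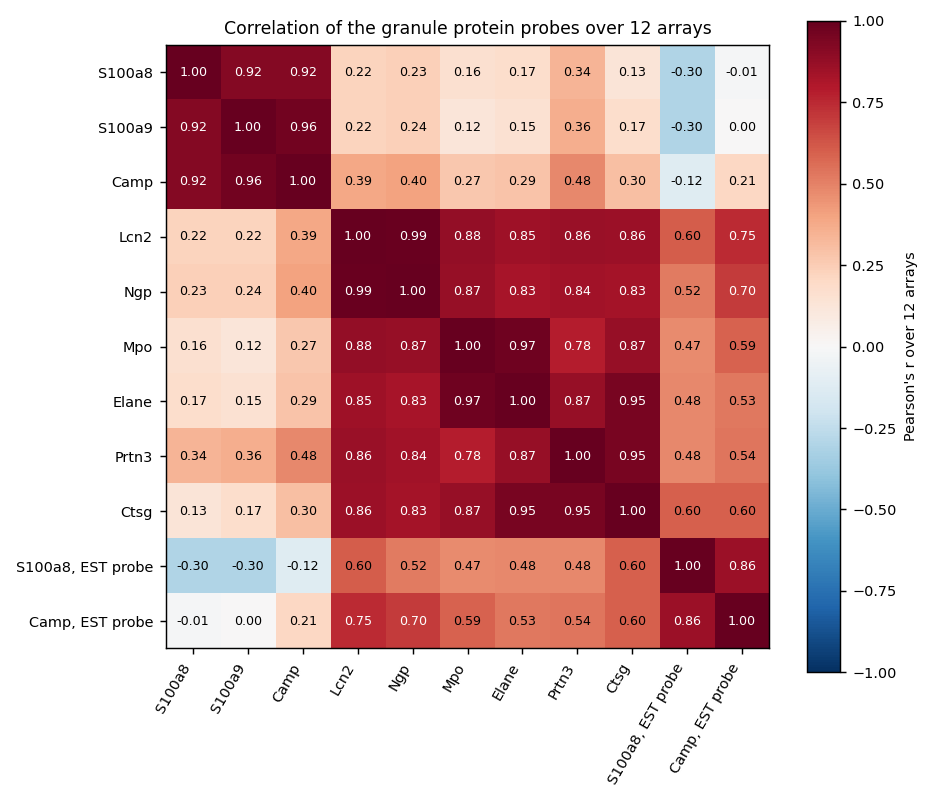
Pearson's r between the 11 tested probes over 12 arrays, from -1 in blue to 1 in red. S100a8, S100a9 and Camp form 1 set, Lcn2, Ngp and the azurophil probes another, and the second, tag-derived probes of S100a8 and Camp go with each other.

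The probes most like each class over the 12 arrays were looked up by Pearson's r with the mean of the class. That mean took the brightest tested probe of each gene. The search covered tested probes with a RefSeq match and a value on every array. Members and names starting with LOC or RGD were left out, and each name was ranked by its best probe. Pinx1, Hmgb1, Fam184b, Marcksl1 and Atp5mc2 came closest to calprotectin, at 0.95 to 0.98. Cd177l2, Acap1, Pglyrp1, Unc13d and Cpne1 came closest to the specific granule genes, at 0.94 to 0.97. Of these, Pglyrp1 encodes a peptidoglycan-binding protein of neutrophil granules. Ddah1, Etfb, Spag4, Nkg7 and Xpo5 came closest to the azurophil genes, at 0.95 to 0.97.

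The upstream sequence of the azurophil genes is shown because these 4 genes moved together. RefSeq promoters, 250 bases before the gene start on GRCr8, were at hand for 8 of the 10 genes, S100a8 and Elane aside. The capitals mark GAGGAA, a core motif of the myeloid factor PU.1, on either strand, and TATAAA on either strand.
Mpo: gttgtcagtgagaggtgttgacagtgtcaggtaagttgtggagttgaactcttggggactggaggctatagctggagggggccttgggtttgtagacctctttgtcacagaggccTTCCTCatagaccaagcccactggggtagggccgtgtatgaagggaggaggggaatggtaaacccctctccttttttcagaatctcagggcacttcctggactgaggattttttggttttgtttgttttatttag
Prtn3: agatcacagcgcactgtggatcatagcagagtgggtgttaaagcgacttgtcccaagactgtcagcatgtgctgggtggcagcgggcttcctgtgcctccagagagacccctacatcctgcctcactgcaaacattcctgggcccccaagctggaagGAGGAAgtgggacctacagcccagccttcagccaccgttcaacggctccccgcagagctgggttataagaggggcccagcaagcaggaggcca
Ctsg: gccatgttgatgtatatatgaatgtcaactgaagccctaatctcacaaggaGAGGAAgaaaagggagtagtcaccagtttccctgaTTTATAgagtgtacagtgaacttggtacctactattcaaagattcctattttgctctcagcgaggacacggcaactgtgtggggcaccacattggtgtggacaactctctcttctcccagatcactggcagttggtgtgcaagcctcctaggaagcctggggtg
These windows are chr10:73092152-73092401 on the plus strand for Mpo, and chr7:10476197-10476446 and chr15:33907597-33907846 on the minus strand for Prtn3 and Ctsg. GAGGAA was found in 4 of the 8 promoters, those of S100a9, Mpo, Prtn3 and Ctsg, and in 23.3% of 33469 RefSeq promoters of that length. TTGCNNAA, a motif of C/EBP factors, was found on either strand in 2 of the 8, those of Lcn2 and Ngp, and in 9.2% of all. TATAAA was found in 2 of the 8, S100a9 and Ctsg, and in 12.9% of all. A match is only a run of letters.

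Other genes of the neutrophil program were counted by the brightest tested probe of each gene, in lists written with earlier results of these data known. Beside these counts and those of the cell markers stand the shares of all tested probes called higher and lower. They were 18.7% and 13.8% for laser against control and 12.2% and 7.83% for bur against control. For laser against bur they were 13.3% and 13.5%. Differences from these shares were not tested. Drilled bone, where no granule member was called higher, had higher RNA of several receptors and regulators of myeloid cells. Of 18 tested genes of gelatinase granules and mature neutrophils, 6 were higher and 1 lower in drilled than in uncut bone, with a median of 0.40. Without bur 2 or control 2 the count of higher genes was 3, and with array weights it was 2. Trem1, a receptor that amplifies inflammation in neutrophils and monocytes, was 3.60-fold higher (adjusted p = 0.00494). Itgam, the CD11b integrin chain of neutrophils and macrophages, was 2.49-fold higher (adjusted p = 0.0135). Clec4e, a receptor for mycobacterial glycolipid, was well above background on 4 bur arrays and on none of the control arrays. By the main processing it was at least 7.31-fold higher (adjusted p = 0.00706). Apart from single omissions, the alternatives gave Clec4e differences of 0.95 to 3.89 log2. Retnlg, a resistin-like product of neutrophils, was lower, at -1.08 ± 0.34 (adjusted p = 0.0463), a call lost under 17 of 25 alternatives. Macrophage markers moved with these genes: 6 of 8 were higher in drilled bone. That count was 4 to 5 on single omissions and 3 without control 1 and control 4. The part of macrophages in the receptor differences was not tested.

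In laser-cut against drilled bone, 6 of those 18 genes were lower and 1 higher, with a median of -0.70. The count of lower genes was 3 without bur 1, bur 2 or laser 2 and 2 without laser 1 or laser 3. Trem1 differed by -2.06 ± 0.36 (adjusted p = 0.00156) and Itgam by -1.62 ± 0.31 (adjusted p = 0.00305), the reverse of calprotectin and Camp. Fpr1, a receptor for bacterial formyl peptides, was the 1 gene of the list that was higher, 2.39-fold over drilled bone (adjusted p = 0.00297), and it was 2.18-fold higher than in uncut bone (adjusted p = 0.00470). In laser-cut against uncut bone Fpr1 was the 1 gene of the 18 called by its brightest probe. A dimmer probe of Mmp25, a membrane-bound metalloproteinase of neutrophils, was called higher, by 2.06 over uncut bone (adjusted p = 0.00911) and by 2.099 over drilled bone (adjusted p = 0.0101), where the brightest Mmp25 probe differed by -0.04 and 0.54 (adjusted p = 0.951 and 0.426).

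Of 10 other specific granule genes, 4 were higher and 1 lower in drilled than in uncut bone. Slpi, an inhibitor of elastase and cathepsin G that other cells also make, was 6.71-fold higher (adjusted p = 0.00886). Cyba and Itgb2, which encode a subunit of the NADPH oxidase and the CD18 integrin chain, were 1.96- and 2.15-fold higher (adjusted p = 0.00967 and 0.0132). Other cell types express all 3 of these genes. Hp, haptoglobin, was the 1 that was lower, at -0.93 ± 0.29 (adjusted p = 0.0450), a call lost under 15 of 25 alternatives. By the brightest probes, 1 of the 10, Ptx3, was higher in laser-cut than in uncut bone, 2.50-fold (adjusted p = 0.0122). Against drilled bone 3 were lower after laser, Itgb2, Lyz2 and Cyba. The probes of Lyz2, lysozyme, disagreed: against drilled bone the brightest differed by -0.89 (adjusted p = 0.00972) and another by 1.93 (adjusted p = 6.69e-05). Against uncut bone that other probe differed by 1.72 (adjusted p = 0.000140) and the brightest by -0.38 (adjusted p = 0.187). A dimmer Slpi probe was also higher than in uncut bone, by 1.73 (adjusted p = 0.0497), where the brightest differed by 1.60 (adjusted p = 0.0615). A dimmer Cybb probe was called for bur against control, at 1.30 (adjusted p = 0.0306), and for laser against bur, at -1.72 (adjusted p = 0.00584). The brightest Cybb probe was not called in these comparisons, at 0.89 and -1.05 (adjusted p = 0.119 and 0.0582).

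Of 12 other azurophil granule genes, 2 were higher and 2 lower in drilled than in uncut bone, with a median of -0.63. Ms4a3, a gene of granulocyte and monocyte precursors, differed by -1.42 ± 0.33 (adjusted p = 0.0117), and Fcnb, a ficolin of neutrophil precursors, by -1.11 ± 0.30 (adjusted p = 0.0250). The call of Fcnb was lost under 7 of 25 alternatives. The count of lower genes was 4 without bur 3 and 1 without bur 1, bur 2, bur 4, control 3 or control 4. The genes that were higher were Ctsc, the protease that activates the granule serine proteases, at 1.46 ± 0.26 (adjusted p = 0.00302), and Cd63, a membrane protein of azurophil granules and lysosomes, at 0.96 ± 0.15 (adjusted p = 0.00198). Both of these are expressed by macrophages too. For laser against control 1 of the 12 was called by its brightest probe, Cd63 higher at 0.57 ± 0.15 (adjusted p = 0.0160). Dimmer probes of Ctsc and Lyz2 were called higher as well, at 1.15 and 1.72 (adjusted p = 0.00702 and 0.000140). The brightest probes of these genes differed by 0.48 and -0.38 (adjusted p = 0.174 and 0.187). For laser against bur 1 was higher and 2 lower, with Defa5, an alpha-defensin, 1.75-fold higher (adjusted p = 0.00952).

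**Figure D5:**
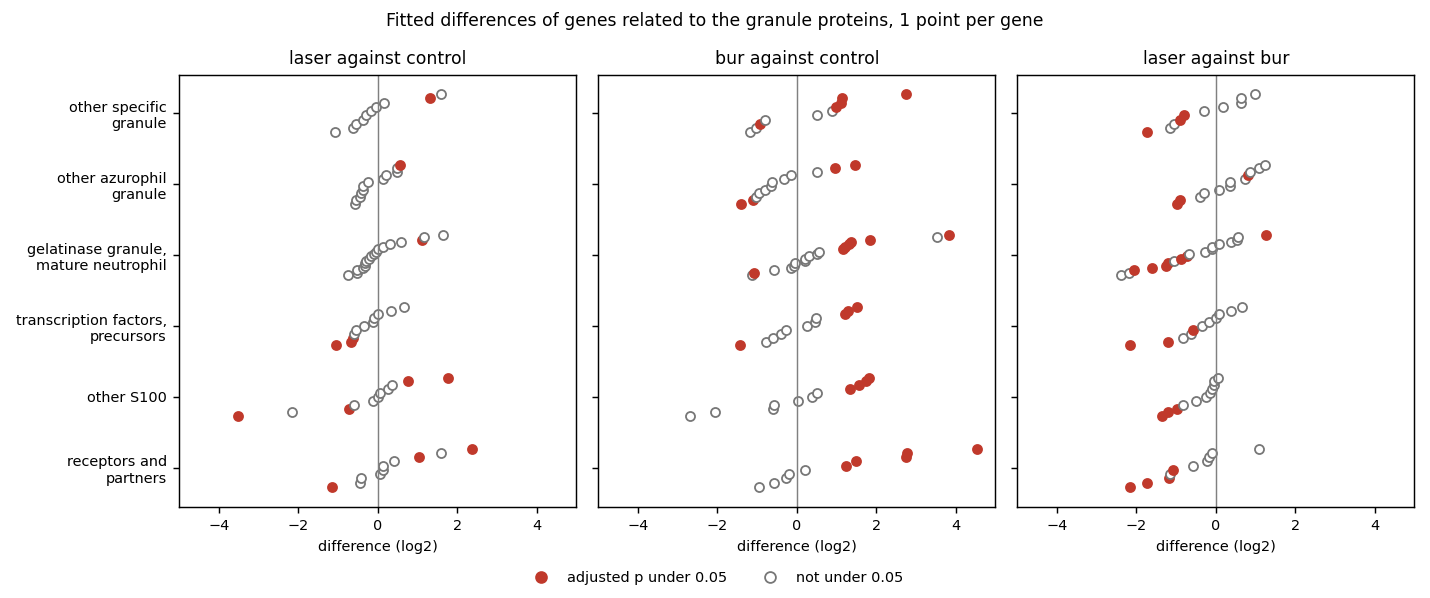
Fitted log2 differences of related genes by list in the 3 comparisons, with 1 point per gene at its brightest tested probe; filled points have an adjusted p under 0.05 over all tested probes. Filled points lie mostly above 0 for bur against control and mostly below 0 for laser against bur.

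Among the transcription factors of granulocytes, Cebpb, which acts in emergency granulopoiesis and in macrophages, differed most. It was 2.83-fold higher in drilled than in uncut bone (adjusted p = 0.000819) and differed by -2.17 ± 0.20 between laser-cut and drilled bone (adjusted p = 1.76e-05). Klf5, a zinc finger factor of several epithelial and myeloid cells, was lower than in uncut bone in both cut groups, with differences of -1.05 ± 0.23 after laser (adjusted p = 0.00518) and -1.44 ± 0.23 after drilling (adjusted p = 0.00201). Of the 3 genes lower in laser-cut than in uncut bone, Cebpb and Runx1 had a second probe that was not called, at -0.01 and 0.41 (adjusted p = 0.981 and 0.243). Cebpe, the factor that drives specific granule genes, was called in none of the 3 comparisons, with -0.56 ± 0.37, -0.39 ± 0.37 and -0.17 ± 0.37 for laser against control, bur against control and laser against bur. Of the 11 tested genes of this list, 3 were lower in laser-cut than in uncut bone, and in drilled bone 3 were higher and 1 lower. Against drilled bone, 3 were lower after laser. Each of these counts of 3 was 1 on some single omissions: laser 1, laser 3 or control 3 for laser against control, bur 1, bur 2, control 1 or control 2 for bur against control, and bur 1, laser 1 or laser 2 for laser against bur.

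In drilled bone other S100 genes stood above control bone. Of 11 other S100 genes tested, 4 were higher there than in uncut bone and none lower: S100a6 by 1.82 ± 0.17 (adjusted p = 0.000313), S100a4 by 1.75 ± 0.16 (adjusted p = 0.000313), S100a10 by 1.57 ± 0.16 (adjusted p = 0.000368) and S100a11 by 1.35 ± 0.26 (adjusted p = 0.00518). These genes are expressed by fibroblasts and many other cells. In laser-cut bone S100a6 was higher than in uncut bone by 1.78 ± 0.17 (adjusted p = 1.73e-05), and so was S100a4 by 0.77 ± 0.16 (adjusted p = 0.00433). A second S100a4 probe gave 0.17 for laser against control (adjusted p = 0.656). As many S100 genes, 2, were lower in laser-cut than in uncut bone. S100b, a gene of glia and Schwann cells, differed by -3.52 ± 1.03 (adjusted p = 0.0224), a call lost under 6 of 23 alternatives, and S100a1, a gene of striated muscle, by -0.73 ± 0.21 (adjusted p = 0.0200), a call lost under 3 of 25. The count of lower genes was 1 without laser 1, laser 2, control 2 or control 4 and 0 without laser 4. Against drilled bone S100a4, S100a10 and S100a11 were lower in laser-cut bone.

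Receptors and partners of the granule proteins were counted last. Of 10 tested, 5 were higher and none lower in drilled than in uncut bone, and 4 were lower in laser-cut than in drilled bone. Calprotectin signals through Tlr4, which works with Ly96 and Cd14. These were 2.79-, 2.35- and 6.86-fold higher in drilled than in uncut bone (adjusted p = 0.00797, 0.00226 and 0.000446). Ager, another receptor for calprotectin, was called in none of the 3 comparisons, with adjusted p of 0.0888, 0.452 and 0.398. In laser-cut against uncut bone Cd14 was 2.06-fold higher (adjusted p = 0.0235), a call lost under 6 of 25 alternatives. Wfdc21 was higher as well, by 2.37 ± 0.68 (adjusted p = 0.0198), with 2 of 4 control arrays well above background. Cd36, a scavenger receptor and fatty acid carrier of several cell types, was lower in laser-cut than in uncut bone, at -1.15 ± 0.22 (adjusted p = 0.00232), a call kept under all 25 alternatives. A second Cd36 probe gave -0.51 for laser-cut against uncut bone (adjusted p = 0.159), and in drilled bone it exceeded uncut bone by 1.17 (adjusted p = 0.00992), where the first probe gave -0.58 (adjusted p = 0.0865). The 2 higher calls for laser against control became 1 without laser 2, laser 4, control 3 or control 4 and 0 without laser 1, and the 4 lower calls for laser against bur became 2 without bur 1, bur 2, laser 3 or laser 4.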

How the data were processed

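RNA of 12 calvarial bone samples was read on single-colour Agilent arrays. The deposited intensity of each spot is the processed signal of Agilent Feature Extraction, version 11.0.1.1 in the submitters' processing notes, corrected for background and flagged for outliers, saturation and background level, per the file headers. No member spot was saturated. The authors' own deposited table gives quantile normalized log2 values, per its title; the first 21080 of its 24920 entries were used, as an alternative. Their comparison tables give deposited p-values, adjusted p-values and log2 fold changes. Those tables repeat 36 columns of array values, which were not used.

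Log2 of the processed signal was quantile normalized without control spots. Outlier spots were then left out, and repeat spots of a probe were averaged. Probes well above background on at least 4 arrays (27196 of 45598) entered 1 fit with limma 3.58.1 in R 4.3.3 (lmFit, contrasts, eBayes), without the sample number as a block, with Benjamini-Hochberg adjustment per comparison. The fit was tested on simulated data. A bound ("at least") sets the bright group's mean against, per array of the dim group, the higher of the probe's signal and the lowest signal well above background. It holds for the main processing only. Accessions were matched to RefSeq names for 21184 probes. The Mpo probe keeps the file's name. The number of arrays limits the precision.

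The members and gene lists were chosen with earlier results of these data known. From each list, the called genes with the highest and lowest difference and up to 4 with the smallest p could be named; Cebpe and Ager were added for their known roles after their values were seen. Same-numbered arrays deviated together at correlations of -0.07 to 0.29 (median 0.13, 12 pairs) and arrays of different numbers at -0.39 to 0.21 (median -0.03, 36 pairs). These correlations do not settle whether the numbers pair the samples. No label states a pairing, so the main fit left the number out, and the calls with it as a block are given beside it. Alternatives varied scaling, background correction, filter, arrays in the fit, block, array weights, probes per gene, source of the values, outlier spots and arrays left out.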

Additional observations from a re-analysis of the deposited data

Results flagged for a closer look

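The Ltf probe read 2.43 log2 on bur 3, against 0.64 to 0.68 on the other 3 bur arrays, a gap beyond Dixon's 95% critical value. It was not well above background on that array or on any other. This was the 1 group of 36 tested in which an array stood apart, and chance alone marks about 1 group in 20.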

How the results depend on the processing

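The number of arrays, 4 per group, limits the calls. The call of S100a9 for laser against control and the calls of S100a8, S100a9 and Camp for laser against bur held under all 25 alternatives. Without a block, 1 member probe was called for bur against control. This count was 0 with array weights and without control 1 and control 4, 2 with 75th percentile scaling, normexp correction, 1 probe per gene or the authors' deposited values, 3 with the filter on all 12 arrays and 3 with the replicate block. It was 5 with the authors' deposited values and the replicate block, an alternative chosen after seeing the data, and 0 to 3 when single arrays were left out. All calls of member probes for bur against control were lower. For laser against control 4 were called, 2 without control 1 and control 4, and 1 to 4 on single omissions.

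With the sample number as a block, Elane, Prtn3 and Ctsg were called lower in drilled bone (adjusted p = 0.00569, 0.00500 and 0.00292), Elane and Ctsg lower in laser-cut bone (adjusted p = 0.0370 and 0.00857), and Prtn3 higher for laser against bur (adjusted p = 0.0430). It called 34%, 20.5% and 27.7% of all probes for laser against control, bur against control and laser against bur. Arrays correlated best with their own number in 13 of 24 cases, where 6 are expected by chance. These cases share arrays and correlations, and the number is also the slide row. The count is a description and does not settle whether the numbers pair the samples.

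Probes called for bur against control numbered 5456 in all, 3107 with only the 2 groups in the fit and 3258 without control 1 and control 4. Direction turned for uncalled values only among the members: with array weights, Mpo and Elane gave -0.22 and -0.072 for laser against bur. On single omissions Mpo ranged from -0.013 to 0.66 for laser against bur and from -0.95 to 0.085 for laser against control, and the second Camp probe from -0.48 to 0.12 for laser against bur. Lyz2 gave 0.45 for laser against bur with the authors' deposited values, with or without the block. The cause was not tested. For bur against control the calls of Csf3r and Ptx3 were lost under 11 and 10 of 25 alternatives.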

Other observations

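Of 6 B cell markers, 1 was lower in laser-cut than in uncut bone and none was called in drilled bone. Of 3 skeletal muscle markers, 2 were higher and 1 lower in laser-cut than in drilled bone, and the count of higher ones was 1 without bur 1, bur 2 or any 1 of the 4 laser arrays. Of 5 neural markers 1 was higher, and of 8 osteoblast and osteocyte markers 1 was higher, in laser-cut than in drilled bone. Of 7 mast cell markers, 1 was lower after laser and 1 after drilling, and none was higher. Of 5 keratinocyte markers tested, Krt14 was well above background on 4 of 4 laser arrays and on no bur or control array. It thus entered the tests through the laser arrays alone, so no p-value is given. By the main processing Krt14 was at least 1.58-fold higher than in drilled bone and at least 1.59-fold higher than in uncut bone, as a description. For laser against bur 2 keratinocyte markers were higher, and 0 to 2 were under the alternatives other than single omissions.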
